A study of Homo sapiens with 6 samples.

Results

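The 45 genes described here encode the machinery that builds autophagosomes and the receptors that bring cargo to them. They were chosen by symbol, as a list ordered by step, with earlier results of these data known. All 45 were among the 21857 genes measured. RNA was sequenced from the MV4;11 line of human acute myeloid leukemia, which has FLT3-ITD (a tandem duplication inside the receptor gene) and MLL-AF4 (a fusion gene). Cells labelled control gave 3 libraries, and cells given FKA (flavokawain A, a chalcone of the kava plant) at 10 µg/ml for 48 h gave 3. The labels name no vehicle for the controls, and all libraries come from 1 cell line. A batch number is given for each library, and every batch, of 3, pairs 1 control with 1 FKA library. Total counts per library ran from 29971171 to 36362421.

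Macroautophagy wraps cytoplasm in a double membrane that later fuses with the lysosome. The ULK kinase complex starts the process, a class III PI3-kinase complex marks the site with the lipid PI3P, and lipid transfer proteins then enlarge the membrane. Ubiquitin-like conjugation systems attach proteins of the ATG8 family to the membrane, where receptors bind them together with their cargo. In myeloid leukemia cells the pathway is known for clearing damaged mitochondria and for supplying nutrients under stress. The libraries hold transcript levels and do not measure the flow of material through autophagosomes.

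Most of these transcripts were higher after FKA. Levels are given as CPM, a gene's count relative to the size of its library, with sizes scaled by TMM (the trimmed mean of M-values). Changes come from edgeR's quasi-likelihood test with Benjamini-Hochberg adjustment over all 13531 tested genes, and a gene was called at an adjusted p below 0.05. Of the 45 genes, 43 had enough counts to be tested, and ULK2 and MAP1LC3A did not. 29 of the 43 rose, 2 fell and 12 were not called. Many genes responded in these cells: 59.8% of all tested genes were called, 29.3% higher and 30.5% lower. The matching shares of the autophagy genes were 72.1%, 67.4% and 4.65%. As the list was chosen with earlier results of these data known, the difference describes the listed genes and is not independent support. The median log2 fold change was 0.54 over the 43 genes and 0.01 over all tested genes. Changes of at least 2-fold were found in 11 rising and 1 falling gene, where 25.5% of all tested genes passed such a limit, 11.9% higher and 13.7% lower.

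The groups did not overlap in 34 genes that stood higher and 3 that stood lower with FKA, against 33.7% and 33.6% of all tested genes (67.3% in either direction). Within the labelled batches, 36 of the 43 genes were higher in the FKA library of all 3 batches and 4 were lower in all 3. The matching shares of all tested genes were not counted, so these batch counts are not read as particular to autophagy genes. Of all genes called, 48.9% were higher. With library totals as the only scaling this share was 60.3%, the median of all genes stood at 0.17, and 35 autophagy genes were higher and 2 lower. Fits that left out 1 library called 24 to 29 of these genes higher and 2 lower.

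**Figure D1:**
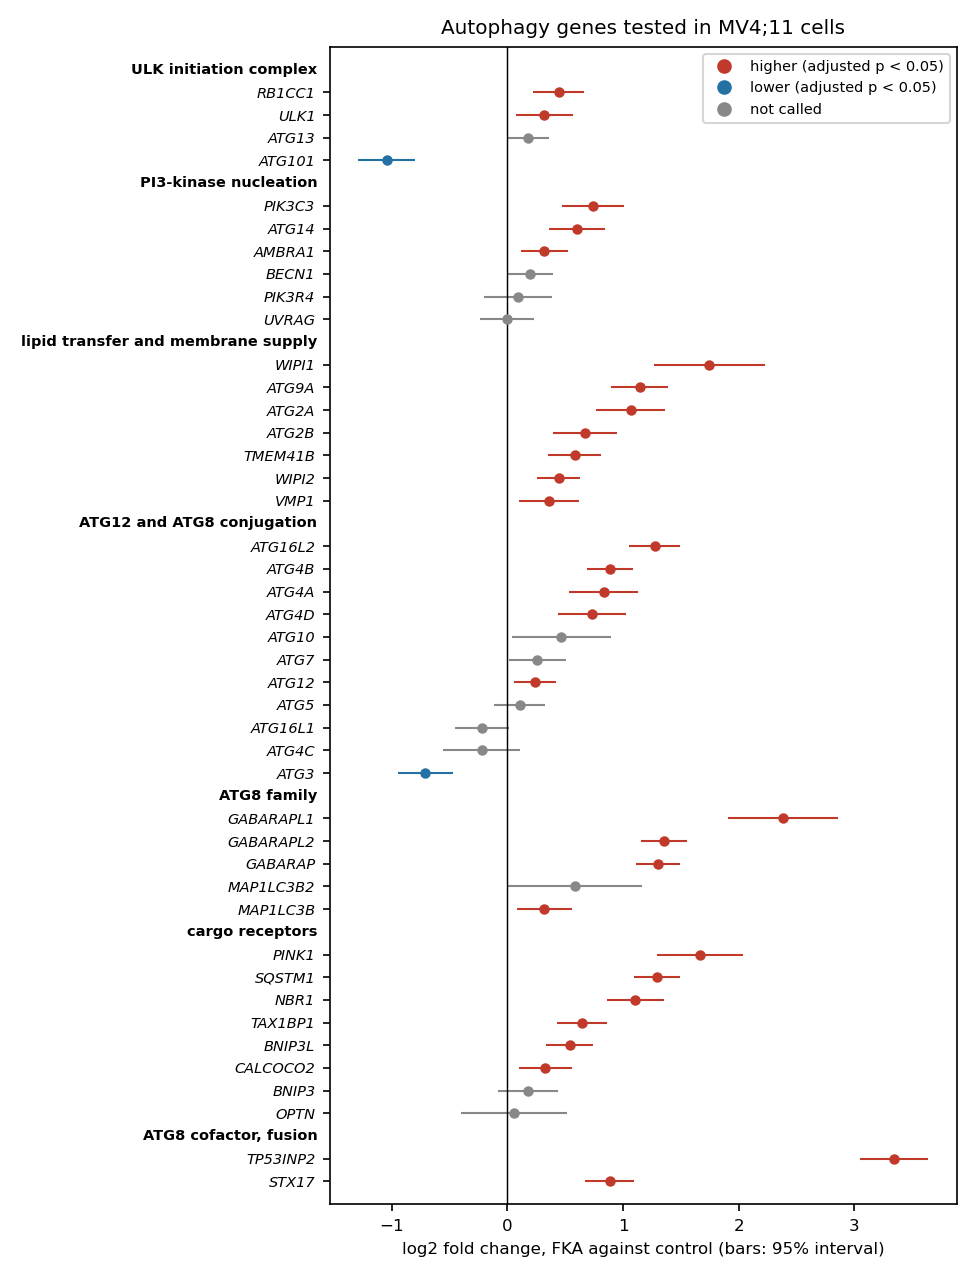
Log2 fold change of FKA against control for the 43 tested autophagy genes, ordered within each step, with 95% intervals not adjusted for the number of genes. Points are red for genes called higher, blue for genes called lower and grey for genes not called. ATG101 and ATG3 are the genes left of 0 that were called, and TP53INP2 lies farthest to the right at 3.34.

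In bulk libraries, fewer cells of a type and less RNA per cell cannot be told apart. Markers of other cells differed between libraries of the same group. Of 12 mesenchymal markers, all were in the table, and their summed level was 53.8, 34.2 and 19.4 CPM in control replicates 1 to 3 and 10.2, 64.9 and 65.2 CPM in FKA replicates 1 to 3. COL1A2, COL3A1, COL5A1, DCN, PDGFRB and POSTN had no count in FKA replicate 1. All 10 myeloid markers, including PTPRC, SPI1 and FLT3, were present, with sums of 1377 to 1616 CPM in controls and 1916 to 1986 CPM with FKA. Those 3 were not called, while CSF3R (log2 fold change 1.53, edgeR adjusted p = 5.57e-06), ITGAM (1.51, 0.000415), MEIS1 (0.58, 0.0434) and CD44 (0.48, 0.00281) were called higher and HOXA9 lower (-0.52, 0.0437). Of 7 T and NK cell markers 4 were in the table, with sums of 21.5 to 24.3 CPM in controls and 9.38 to 9.72 CPM with FKA that were almost wholly NKG7. Of 5 B cell markers 4 were in the table, with sums of 20.6 to 27.3 and 7.30 to 9.67 CPM, mostly PAX5. The 5 erythroid markers had no row in the table, and the 5 epithelial markers summed to 19.2 to 21.8 CPM in controls and 12.9 to 18.8 CPM with FKA. The mesenchymal markers did not move as one. COL6A3 made up most of the control sums, with 42.2, 25.0 and 18.5 CPM in controls against 9.01, 10.8 and 15.1 CPM with FKA, and was called lower (-1.29, edgeR adjusted p = 0.0053). COL1A1 stood at 13.0 and 12.9 CPM in FKA replicates 2 and 3 and at most 2.41 CPM elsewhere, and FN1 was high in the same libraries. The part of these markers in the results was not tested as such. Without FKA replicates 2 and 3 the test rests on 1 FKA library that is assumed to vary like the controls. It called 22 autophagy genes higher and 2 lower, all of which were called with 6 libraries, and 32.3% of all genes.

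The ULK complex went both ways. ATG101, the subunit that stabilises ATG13 in the complex, had 27.9, 30.7 and 29.3 CPM in the controls and 14.8, 14.5 and 13.5 CPM with FKA. The FKA libraries sat together at about the same level, far below every control. Its log2 fold change was -1.04 (SE 0.109, edgeR adjusted p = 7.39e-05), with batch values of -0.92, -1.08 and -1.12. RB1CC1, the large scaffold also called FIP200, rose from 111 ± 5.98 to 151 ± 15.8 CPM (mean ± SD, n = 3 per group; log2 fold change 0.44, edgeR adjusted p = 0.00414).

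ULK1, the kinase of the complex, rose slightly, from 44.1, 55.9 and 53.7 to 65.5, 66.2 and 60.3 CPM (0.32, edgeR adjusted p = 0.0297). That call did not survive the loss of control replicate 1 (0.22, edgeR adjusted p = 0.0623), control replicate 3 (0.35, 0.0552), FKA replicate 1 (0.30, 0.0879) or FKA replicate 2 (0.30, 0.0836). ATG13, the regulatory subunit, which lay below ATG101 per transcript length in each control and above it in each FKA library, had 117, 123 and 121 CPM in controls and 129, 137 and 142 CPM with FKA. The groups did not overlap, but the difference of 0.18 on the log2 scale was not called (edgeR adjusted p = 0.0808), whereas it was called with library totals alone (0.34, 0.00807). ULK2, the second kinase gene, had only 2, 2 and 3 counts in the controls and 5, 9 and 9 with FKA, so ULK1 supplied nearly all transcripts of this kinase pair in every library.

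In the nucleation complex, the catalytic subunit and ATG14 rose while the other core subunits were not called. PIK3C3, the class III PI3-kinase also known as VPS34, went from 68.4, 56.7 and 63.3 CPM to 121, 98 and 95.7 CPM (log2 fold change 0.74 with SE 0.118, edgeR adjusted p = 0.000665). All FKA libraries lay above the controls, with FKA replicate 1 highest. ATG14, which directs the kinase to autophagosome formation, rose from 20.5 ± 1.00 to 31.2 ± 2.31 CPM (0.60, edgeR adjusted p = 0.00129). AMBRA1, a regulator that links the complex to ubiquitin ligases, rose from 32.6 ± 0.963 to 40.6 ± 1.32 CPM (0.32, edgeR adjusted p = 0.0135), and missed the threshold without control replicate 3 (0.29, edgeR adjusted p = 0.0559).

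BECN1, the scaffold bound by BCL2 and the most abundant transcript of the step per length, had 80.5, 73.1 and 79.5 CPM in controls and 95.3, 85.7 and 86.3 CPM with FKA. Its groups did not overlap, yet the difference of 0.20 was not called (95% interval 0.0018 to 0.39 before adjustment, edgeR adjusted p = 0.0754). With library totals alone it passed (0.36, edgeR adjusted p = 0.00492). PIK3R4, the pseudokinase subunit VPS15, stood at 0.09 (interval -0.20 to 0.39), and UVRAG, which replaces ATG14 in the endosomal form of the complex, at -0.0037 (interval -0.24 to 0.23). The groups of both overlapped.

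All 7 genes of lipid transfer and membrane supply rose. WIPI1, a PI3P-binding propeller protein, went from 1.87, 2.68 and 2.38 to 6.55, 8.22 and 8.52 CPM (log2 fold change 1.75 with SE 0.212, edgeR adjusted p = 0.000156). Every FKA library lay far above the highest control. ARSG, whose exons overlap WIPI1 on the opposite strand, had a mean of 14.1 CPM in controls, and of 12.5 with FKA. ATG9A, the scramblase carried by the vesicles that seed the membrane, rose from 34.9, 41.3 and 34.8 to 73.7, 84.9 and 86.8 CPM (1.14 with SE 0.108, edgeR adjusted p = 4.48e-05). ATG2A, a lipid transfer protein that bridges the endoplasmic reticulum and the growing membrane, rose from 22.1, 16.8 and 19.2 to 37.7, 39.0 and 45.1 CPM (1.07 with SE 0.132, edgeR adjusted p = 0.00017). The groups of all 3 genes stayed apart, and the batch values lay between 1.62 and 1.84 for WIPI1, 1.04 and 1.32 for ATG9A, and 0.77 and 1.23 for ATG2A.

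Smaller rises were measured for ATG2B (0.67, edgeR adjusted p = 0.00146), the paralog of ATG2A, and for the endoplasmic reticulum scramblase TMEM41B (0.58, 0.00116). WIPI2, the propeller protein that recruits ATG16L1, rose by 0.44 (edgeR adjusted p = 0.0016). GSKIP, whose exons overlap ATG2B on the opposite strand, was also called higher (0.60, edgeR adjusted p = 0.00656). It had a mean of 12.3 CPM in controls and 18.5 with FKA, below the 46.1 and 73.3 CPM of ATG2B. VMP1, the second endoplasmic reticulum scramblase and the most abundant of the step per length, had 74.6, 88.5 and 80.5 CPM in controls and 90.1, 106 and 117 CPM with FKA (0.36, edgeR adjusted p = 0.0221). Its rise missed the threshold without control replicate 1 (0.29, edgeR adjusted p = 0.0604), control replicate 3 (0.35, 0.0684), FKA replicate 2 (0.35, 0.0576) or FKA replicate 3 (0.27, 0.088). Without both FKA replicates 2 and 3, WIPI2 (0.44, edgeR adjusted p = 0.0524) and VMP1 (0.14, 0.525) were not called.

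**Figure D2:**
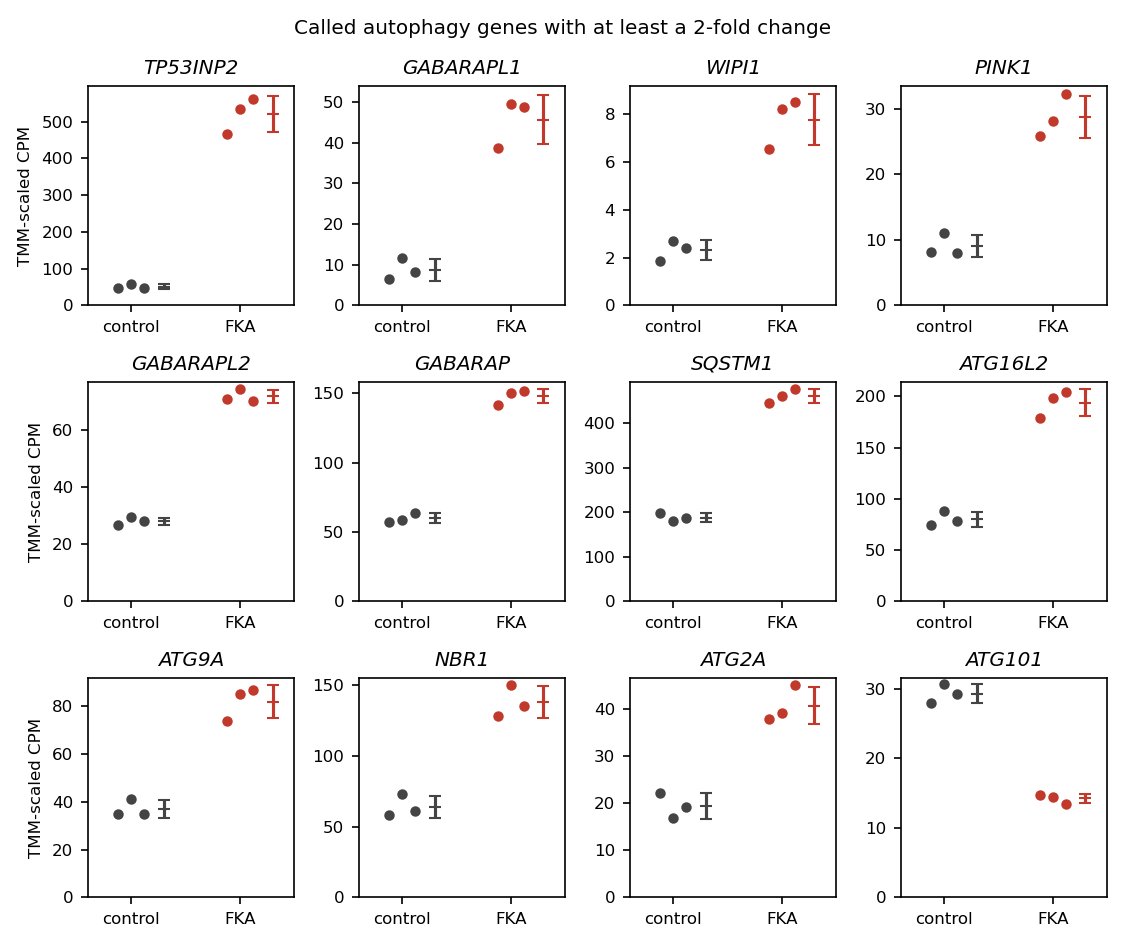
TMM-scaled CPM in each library for the 12 called autophagy genes with at least a 2-fold change, control in grey and FKA in red, with points for replicates 1 to 3 from left to right and the mean ± SD of 3 libraries beside them. Each vertical axis starts at 0. The groups are apart in every panel, and ATG101 is the gene with lower FKA libraries.

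The conjugation genes went both ways. Of 11 genes, 5 rose, 1 fell and 5 were not called. ATG3, the E2-like enzyme that transfers ATG8 proteins to the lipid phosphatidylethanolamine, fell from 80.6, 96.6 and 98.4 to 56.6, 51.9 and 60.2 CPM (log2 fold change -0.71 with SE 0.106, edgeR adjusted p = 0.00048). All FKA libraries were below all controls, and the batch values were -0.51, -0.90 and -0.71. ATG7, the E1-like enzyme that serves both systems, stood at 0.26 (edgeR adjusted p = 0.0682) and was called with the batch as a block (0.26, 0.0326) and without FKA replicate 2 (0.34, 0.0377). ATG10, the E2-like enzyme of ATG12, stood at 0.46 (edgeR adjusted p = 0.0593, and 0.0327 with the batch as a block).

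ATG12, the ubiquitin-like protein itself, rose slightly (0.24, edgeR adjusted p = 0.0291). This was lost without control replicate 1 (0.20, edgeR adjusted p = 0.0603), control replicate 3 (0.23, 0.0878), FKA replicate 1 (0.23, 0.0843) or FKA replicate 2 (0.22, 0.0899). ATG5, to which ATG12 is joined, had 53.4 ± 5.44 CPM in controls and 57.5 ± 1.79 CPM with FKA, a difference that was not called (0.11, interval -0.12 to 0.33). The ATG4 proteases trim ATG8 proteins before conjugation and release them afterwards. 3 of the 4 rose, namely ATG4B (36.2 ± 1.77 to 66.9 ± 2.30 CPM, 0.88, edgeR adjusted p = 5.49e-05), ATG4A (0.83, 0.000661) and ATG4D (0.73, 0.00124). ATG4C was not called (-0.22, interval -0.56 to 0.11). KRI1, whose exons overlap ATG4D on the opposite strand, had a mean of 161 CPM in controls and 133 with FKA. Those levels lie far above the 16.1 and 26.7 CPM of ATG4D. AP3S1, which overlaps ATG12 in the same way, had a mean of 94.7 CPM in controls and 77.5 with FKA. ATG12 had 74.0 and 87.2 CPM.

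The ATG16 paralogs parted. ATG16L2, a paralog of the ATG16L1 protein that places the ATG12-ATG5 conjugate on membranes, rose from 74.3, 88.3 and 78.3 to 179, 199 and 204 CPM (log2 fold change 1.27 with SE 0.0989, edgeR adjusted p = 1.63e-05). ATG16L1 had 40.5, 37.9 and 39.7 CPM in controls and 34.0, 30.5 and 37.0 CPM with FKA, groups that did not overlap, but its difference of -0.22 was not called (edgeR adjusted p = 0.0981). The log2 ratio of ATG16L1 to ATG16L2 in FPKM, which scales counts by gene length and column total, was 0.46, 0.12 and 0.36 in controls and -1.06, -1.37 and -1.13 with FKA. So ATG16L1 was the more abundant of the pair per length in each control and ATG16L2 in each FKA library (exact two-sided permutation test p = 0.1, the smallest that 3 against 3 libraries can give, 0.12 after adjustment over 6 ratios).

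Of the other ratios, WIPI1 to WIPI2 moved from -4.71 ± 0.341 to -3.40 ± 0.222, BNIP3L to BNIP3 from 0.06 ± 0.246 to 0.41 ± 0.0546, and ATG2A to ATG2B from -0.21 ± 0.0957 to 0.19 ± 0.271 (each exact permutation p = 0.1, adjusted p = 0.12). ATG4A to ATG4B stood at -1.51 ± 0.0313 and -1.56 ± 0.0937 (exact permutation p = 0.5). The ratio of ULK1 to ULK2 rests on the few counts of ULK2 and is not read here.

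In the ATG8 family 4 of 5 tested genes rose, with a median log2 fold change of 1.30. These small ubiquitin-like proteins are the ones attached to the membrane, and they fall into the GABARAP and the LC3 subfamilies. GABARAP had 57.5, 58.6 and 63.9 CPM in controls and 142, 150 and 151 CPM with FKA (log2 fold change 1.30 with SE 0.0832, edgeR adjusted p = 7.68e-06). GABARAPL2 had 26.9, 29.4 and 28.1 CPM in controls and 71.2, 74.6 and 70.2 CPM with FKA (1.35 with SE 0.0877, edgeR adjusted p = 7.78e-06). GABARAPL1 had 6.37, 11.6 and 8.24 CPM in controls and 38.7, 49.5 and 48.7 CPM with FKA (2.38 with SE 0.211, edgeR adjusted p = 3.15e-05). In all 3 GABARAP genes the lowest FKA library lay far above the highest control.

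MAP1LC3B, the LC3 gene whose protein is the usual marker of autophagosomes, moved less. It had 64.8, 82.6 and 73.2 CPM in controls and 90.1, 97.3 and 87.9 CPM with FKA, a log2 fold change of 0.32 (95% interval 0.08 to 0.56, edgeR adjusted p = 0.0259). The call was lost without control replicate 1 (0.23, edgeR adjusted p = 0.0625), control replicate 3 (0.31, 0.0778), FKA replicate 1 (0.33, 0.0585) or FKA replicate 2 (0.28, 0.0854). MAP1LC3B2, a near copy of MAP1LC3B whose reads may be divided between the genes, had 1.42, 1.62 and 1.13 CPM in controls and 2.21, 1.88 and 2.16 CPM with FKA, but was not called (0.58, edgeR adjusted p = 0.0796). MAP1LC3A was too low to be tested, with 3, 1 and 4 counts in controls and 9, 21 and 12 with FKA.

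The makeup of the family differed accordingly. Its summed level was 97.6, 118 and 109 FPKM in controls and 255, 278 and 264 FPKM with FKA. MAP1LC3B carried 28.5%, 32.0% and 29.3% of that sum in controls and 17.3%, 17.4% and 16.3% with FKA. The difference was -12.9 percentage points, or -17.2 points in shares of CPM, which ignore length. GABARAPL1 carried 2.61%, 4.17% and 3.07% in controls and 6.93%, 8.25% and 8.38% with FKA. Its difference was 4.57 points, or 7.64 points in shares of CPM. GABARAP went from 39.9% ± 2.54 to 44.6% ± 0.906 and GABARAPL2 from 25.4% ± 0.664 to 29.4% ± 0.775 (SD, n = 3). None of these shares overlapped between the groups, and each had an exact two-sided permutation p of 0.1, the smallest possible, and 0.1 after adjustment over the 6 shares.

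**Figure D3:**
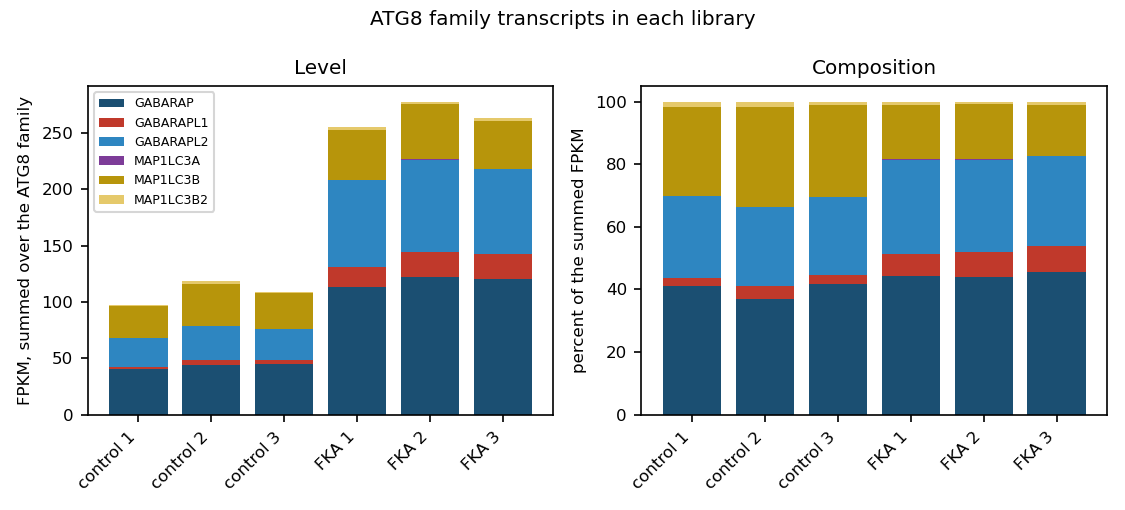
ATG8 family transcripts in each library, on the left as deposited FPKM stacked by gene and on the right as percent of the summed FPKM. The stacks stand between 97.6 and 118 FPKM in controls and between 255 and 278 FPKM with FKA, and MAP1LC3B takes 28.5% to 32.0% of the control stacks and 16.3% to 17.4% of the FKA stacks.

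Promoter sequences were read for the genes that moved together and for those that did not. RefSeq's promoter table (GRCh38.p14, 250 bases before to 50 after a start) held 38 of the 45 genes, 8 of them with more than 1 start. Motifs were searched on both strands. They were the E-box CACGTG bound by TFEB and related factors, its longer form TCACGTGA, which contains the E-box, the FOXO motif TGTTTAC, the antioxidant element core TGACNNNGC bound by NRF2, and the ATF4 motif TGATGNAA. Shares are given per gene, beside those of all tested genes with a promoter, and then of all 35116 single promoters. The E-box was in 3 of the 38 genes (7.89%), against 12.4% of tested genes and 7.26% of promoters. The longer form was in 1 gene (2.63%, against 2.22% and 0.98%) and the FOXO motif in 1 (2.63%, against 3.4% and 3.42%). The antioxidant core was in 3 genes (7.89%, against 19.4% and 13.3%) and the ATF4 motif in 0 (against 2.78% and 3.62%). Of the 3 genes with an E-box, ATG14 rose, ATG3 fell and BNIP3 was not called, and the longer form was in ATG3.

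4 windows are printed as examples, 5′ to 3′ on the strand of the gene, with matches in capitals. GABARAPL1 is at chr12:10212627-10212926 (plus strand), MAP1LC3B at chr16:87392086-87392385 (plus), ATG3 at chr3:112561913-112562212 (minus) and ATG14 at chr14:55411781-55412080 (minus). GABARAPL1, the ATG8 gene with the largest rise, held none of the 5 motifs, MAP1LC3B held an antioxidant core, ATG3 an E-box before its start and the longer form after it, and ATG14 an E-box 21 bases before its start. A match describes letters only, and its absence from a window of 300 bases says nothing of sites elsewhere. Whether any of these factors acted was not tested.
GABARAPL1: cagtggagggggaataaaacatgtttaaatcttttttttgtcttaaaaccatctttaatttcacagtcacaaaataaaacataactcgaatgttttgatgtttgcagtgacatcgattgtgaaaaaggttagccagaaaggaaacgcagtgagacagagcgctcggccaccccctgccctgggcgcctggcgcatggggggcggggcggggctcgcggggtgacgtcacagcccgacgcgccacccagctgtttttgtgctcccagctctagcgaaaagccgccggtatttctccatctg
MAP1LC3B: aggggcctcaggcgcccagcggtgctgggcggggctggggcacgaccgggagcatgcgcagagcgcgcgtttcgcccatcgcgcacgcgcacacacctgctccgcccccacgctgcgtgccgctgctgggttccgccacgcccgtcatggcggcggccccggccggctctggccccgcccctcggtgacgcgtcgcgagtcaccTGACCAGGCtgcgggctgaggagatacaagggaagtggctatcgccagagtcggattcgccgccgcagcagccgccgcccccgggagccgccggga
ATG3: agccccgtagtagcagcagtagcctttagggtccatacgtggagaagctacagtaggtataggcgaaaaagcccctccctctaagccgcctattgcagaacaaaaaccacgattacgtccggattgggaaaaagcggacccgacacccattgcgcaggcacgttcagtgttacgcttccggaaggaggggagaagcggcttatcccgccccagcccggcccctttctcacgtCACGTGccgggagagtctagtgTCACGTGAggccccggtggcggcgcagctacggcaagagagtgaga
ATG14: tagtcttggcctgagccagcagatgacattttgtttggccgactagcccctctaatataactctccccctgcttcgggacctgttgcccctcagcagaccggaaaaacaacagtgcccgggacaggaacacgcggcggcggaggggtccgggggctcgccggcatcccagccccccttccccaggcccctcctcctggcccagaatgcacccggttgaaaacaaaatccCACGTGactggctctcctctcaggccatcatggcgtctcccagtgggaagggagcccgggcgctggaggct

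Most cargo receptors rose, with the ubiquitin-binding receptors SQSTM1 and NBR1 among the largest changes. SQSTM1, also called p62, had 198, 180 and 186 CPM in controls and 444, 462 and 477 CPM with FKA (log2 fold change 1.29 with SE 0.0889, edgeR adjusted p = 9.7e-06). The controls and the FKA libraries each kept within a narrow band, and the batch values were 1.16, 1.36 and 1.36. MRNIP, whose exons overlap SQSTM1 on the opposite strand, rose from 5.47 to 12.4 CPM, a level far below that of SQSTM1. NBR1, a receptor that works with SQSTM1, went from 58.5, 72.8 and 60.7 to 128, 150 and 135 CPM (1.10 with SE 0.109, edgeR adjusted p = 5.62e-05). TAX1BP1, a further receptor of ubiquitinated aggregates, rose from 149 ± 13.3 to 232 ± 12 CPM (0.64, edgeR adjusted p = 0.000491).

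CALCOCO2, the receptor NDP52 that acts on bacteria and mitochondria, rose by 0.33 (edgeR adjusted p = 0.021). It missed the threshold without control replicate 2 (0.24, edgeR adjusted p = 0.0796), control replicate 3 (0.32, 0.0692), FKA replicate 1 (0.28, 0.0814) or FKA replicate 3 (0.33, 0.0535). OPTN, the optineurin receptor, had 22.3, 41.6 and 33.6 CPM in controls and 32.3, 37.6 and 31.7 CPM with FKA, overlapping groups, and was not called (0.06, interval -0.40 to 0.51). Its log2 fold change was -0.16 without control replicate 1.

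Among the genes of mitophagy, PINK1, the kinase that accumulates on damaged mitochondria, rose from 8.08, 11.0 and 8.06 to 25.8, 28.2 and 32.2 CPM (log2 fold change 1.66 with SE 0.163, edgeR adjusted p = 5.34e-05). Its groups were far apart, with batch values of 1.68, 1.35 and 2.00. BNIP3L, the outer membrane receptor also called NIX, rose from 58.9 ± 3.54 to 85.7 ± 5.36 CPM (0.54, edgeR adjusted p = 0.000877). Its relative BNIP3, a hypoxia-responsive receptor, had 24.6 ± 2.74 and 27.9 ± 0.837 CPM and was not called (0.18, interval -0.08 to 0.44), although it was with library totals alone (0.34, edgeR adjusted p = 0.0298).

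The largest change of all 43 genes was that of TP53INP2, a nuclear and cytoplasmic protein also called DOR that binds ATG8 proteins and promotes autophagosome formation. It had 48.7, 58.9 and 46.2 CPM in controls and 465, 535 and 561 CPM with FKA, a 10.2-fold rise (log2 fold change 3.34 with SE 0.131, edgeR adjusted p = 9.28e-07). The batch values of 3.25, 3.18 and 3.60 were alike. STX17, the syntaxin that lets the finished autophagosome fuse with the lysosome, rose from 29.9 ± 1.91 to 55.2 ± 1.85 CPM (0.89 with SE 0.0932, edgeR adjusted p = 7.7e-05).

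These changes reordered the levels per transcript length. In controls the highest were SQSTM1 (54.5 ± 1.35 FPKM), GABARAP (43.0 ± 2.65), TAX1BP1 (39.0 ± 2.19), BECN1 (32.5 ± 0.589) and MAP1LC3B (32.5 ± 5.07), of which the last pair lay within their spread of each other. With FKA the order was SQSTM1 (149 ± 5.11 FPKM), TP53INP2 (131 ± 12.5), GABARAP (118 ± 4.52), GABARAPL2 (78.1 ± 3.29) and TAX1BP1 (68.1 ± 2.89), and here TP53INP2 and GABARAP differed by about the SD of TP53INP2. TP53INP2 ranked 17 of 45 in controls and 2 with FKA, and GABARAPL1 ranked 36 and 16. ATG3 went from rank 6 to 18 and ATG101 from 9 to 29. Summed over a step, the cargo receptors, with PINK1 counted among them, stood at 171 ± 2.27 FPKM in controls and 341 ± 4.01 with FKA. SQSTM1 alone made up 54.5 and 149 FPKM of these sums. Lipid transfer and membrane supply stood at 58.1 ± 4.09 and 101 ± 5.16, and initiation at 55.1 ± 4.68 and 59.3 ± 1.55. The initiation groups overlapped, with 59.8 FPKM in control replicate 2 and 57.6 in FKA replicate 3 (exact permutation test p = 0.2). These sums are scaled by column total, without TMM. With totals alone the middle tested gene stood at 0.17 on the log2 scale, against 0.01 with TMM. The small initiation difference is therefore not read as a rise.

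Other genes of the pathway were taken from a list, of which 39 were in the table and tested. 23 of the 39 rose (59.0%), 6 fell (15.4%) and 10 were not called, with a median log2 fold change of 0.42. Of all tested genes, 29.3% were called higher and 30.5% lower, with a median of 0.01. This list too was chosen with earlier results known, so the difference is not independent support. Fits on log2(FPKM + 1) or log2(FPKM + 0.1) with limma called 3 lower in place of 6, and so did edgeR without FKA replicates 2 and 3.

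Of 13 genes of tethering and fusion, 11 rose, 1 fell and YKT6 was not called. PLEKHM1, an adaptor between the lysosomal RAB7 and the HOPS tether, rose from 22.1 to 53.7 CPM (log2 fold change 1.28, edgeR adjusted p = 1.78e-05), TECPR1 by 1.11 (3e-05) and the HOPS subunit VPS39 by 0.85 (0.000126). The HOPS subunits VPS11, VPS16, VPS18, VPS33A and VPS41 were called higher as well. VAMP8, the lysosomal partner of STX17, fell by 0.42 (edgeR adjusted p = 0.018), but not past the threshold without control replicate 3 (-0.37, edgeR adjusted p = 0.0648) or with library totals alone (-0.26, 0.087).

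Of 9 genes that remove or read PI3P or adjust the PI3-kinase, 7 rose, 1 fell and MTMR14 was not called. This count pools genes of unlike roles and gives no direction for the step. WDR45, the WIPI relative known from a neurodegeneration with iron accumulation, rose from 14.1 to 36.9 CPM (log2 fold change 1.38, edgeR adjusted p = 2.5e-05), the PI3P-binding omegasome protein ZFYVE1 by 1.33 (0.000112) and the phosphatase MTMR3 by 0.97 (3.11e-05). RUBCNL, also called Pacer, fell from 36.9 to 21.5 CPM (-0.78, edgeR adjusted p = 0.0115). It was not called with limma on log2(FPKM + 0.1) (-0.63, adjusted p = 0.0508) or on log2(FPKM + 1) (-0.45, 0.0534).

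Of 17 other receptors and adaptors, 5 were called higher (29.4%), 4 lower (23.5%) and 8 were not called, shares near the 29.3% and 30.5% of all tested genes. CALCOCO1, a receptor for the endoplasmic reticulum and Golgi, rose from 28.0, 28.7 and 24.9 to 177, 214 and 157 CPM (log2 fold change 2.75 with SE 0.13, edgeR adjusted p = 2.34e-06). TBK1, the kinase that activates receptors, rose by 0.80 (edgeR adjusted p = 5.88e-05) and the mitochondrial FKBP8 by 0.77 (6.14e-05). PHB2, a mitochondrial inner membrane receptor, fell from 292 to 124 CPM (-1.23, edgeR adjusted p = 2.72e-05) and NUFIP1 from 16.9 to 8.72 CPM (-0.95, 0.0023). Without FKA replicates 2 and 3, NUFIP1 was not called (-0.85, edgeR adjusted p = 0.0502). RETREG1, a receptor for the endoplasmic reticulum also called FAM134B, was low throughout, at 1.10 CPM in controls and 1, 2 and 9 counts in the FKA libraries (-3.15 with SE 0.623, edgeR adjusted p = 0.00222).

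**Figure D4:**
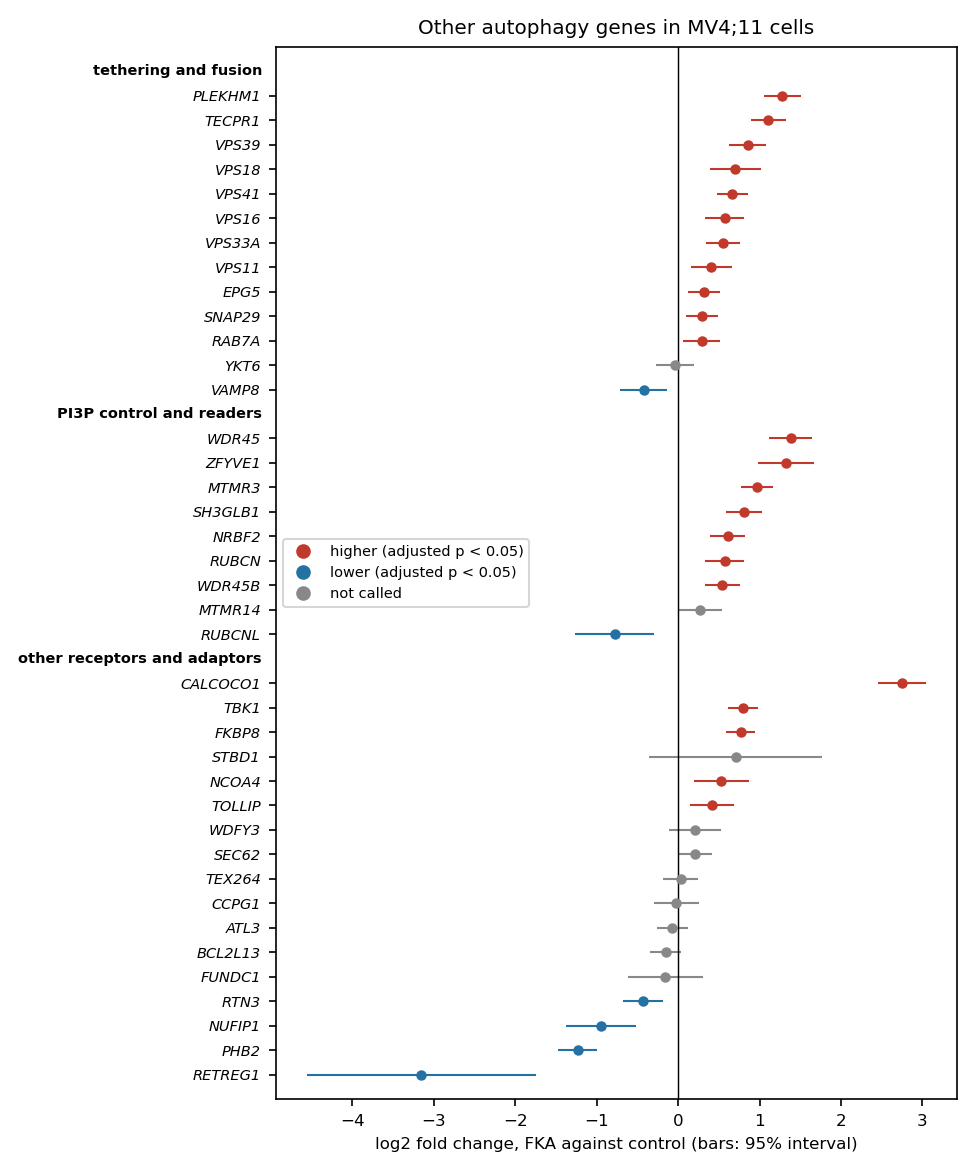
Log2 fold change of FKA against control for the 39 other autophagy genes, in 3 groups, with 95% intervals not adjusted for the number of genes and colours for genes called higher (red), called lower (blue) or not called (grey). CALCOCO1 at 2.75 and RETREG1 at -3.15 lie at the ends.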

How the data were processed

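RNA of 3 control and 3 FKA libraries was sequenced, and the authors deposited whole-number read counts per gene and FPKM values for 21857 genes. Aligner, counter, annotation and strandedness were not given in the sources used here. Per the submitters' processing notes the builds are GRCm38 and mm10, which are mouse builds, while the symbols are human: all 45 occur in GENCODE release 29. Coordinates are printed only for RefSeq promoters. Deposited FPKM equalled count per column total and 1 length per gene within a relative 8.45e-07. No library was a copy: replicate pairs had a chi-square over degrees of freedom of 21.7 to 66.3.

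Counts were tested in R 4.3.3 with edgeR 4.0.16: filterByExpr (13531 genes, at least 99.9% of counts), TMM and the quasi-likelihood F test. The biological coefficient of variation was 15.4%. SE is the log2 fold change divided by the root of F. Whether libraries come from separate cultures is not stated, so p-values measure the spread between these libraries. The labelled batch equals the replicate number and pairs the libraries. Deviations from group means correlated by 0.05, 0.34 and -0.08 within batches 1 to 3, and the batch was a block in an alternative fit. Other alternatives were DESeq2 1.42.0, other scalings and filters, limma 3.58.1 on log2 FPKM, and leaving out libraries. Leaving out FKA replicates 2 and 3 together was chosen after seeing the data. The test was checked on simulated counts.

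Exons of 11 of the 45 genes overlap, in GENCODE, an opposite-strand gene that is also in the tables. These are ATG12, ATG16L2, ATG2B, ATG4B, ATG4D, ATG7, BECN1, OPTN, SQSTM1, VMP1 and WIPI1. Reads of such pairs cannot be told apart without strand. ATG101, ATG9A, BNIP3L, GABARAP, GABARAPL1, NBR1, PINK1, STX17 and TAX1BP1 overlap GENCODE genes, on 1 or both strands, that are not in the tables. The levels of those partners are unknown here. The members and lists were chosen with earlier results of these data known. Values are given by library for called members with at least a 2-fold change, the ATG8 family and the most abundant member of each step by mean FPKM over all libraries, and some others were added after their values were seen. Of the other genes, up to 3 rises and 3 falls per group with the largest change were named by rule, and the other HOPS subunits, YKT6 and MTMR14 were named after their values were seen.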

Additional observations from a re-analysis of the deposited data

How the results depend on the processing

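Of the 31 called autophagy genes, 24 kept direction and call in all 17 alternatives, 7 lost the call in at least 1 and 0 changed sign. Of the 12 uncalled genes, 6 were called in at least 1 alternative. The batch used as a replicate block gave 31 genes higher and 2 lower, adding ATG7 and ATG10, and ended no call of an autophagy gene. Leaving out 1 library gave 24 to 29 higher and 2 lower, 19 to 25 other pathway genes higher and 5 to 6 lower, and 7090 to 8193 of all genes called. No filter on low counts gave 26 higher, without ULK1, AMBRA1, ATG12 and MAP1LC3B and with MAP1LC3A. Without FKA replicates 2 and 3 the calls over all genes were 4619, of which 2020 were higher and 2599 lower, and 3 other pathway genes were lower, as in the 3 limma fits. The cause was not tested, though that edgeR fit has fewer libraries.

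Among the 43 tested autophagy genes, the fold changes of 3 uncalled genes near 0 changed sign. UVRAG stood at 0.066 with upper-quartile scaling, 0.15 with library totals, 0.020 with at least 1 CPM in 3 libraries, 0.13 with limma on log2(FPKM + 1) and on the same values where mean FPKM reached 1, and 0.16 on log2(FPKM + 0.1). Leaving out 1 library gave UVRAG values from -0.082 to 0.047, OPTN from -0.16 (without control replicate 1) to 0.27, with -0.021 without FKA replicate 2, and PIK3R4 from -0.00021 (without FKA replicate 1) to 0.21. OPTN was -0.019 without FKA replicates 2 and 3. The ratio of ULK1 to ULK2 changed by 0.24 with a pseudocount of 0.1 FPKM in place of -1.39, because ULK2 lies below that pseudocount. In shares of CPM, which ignore length, the GABARAPL1 difference was 7.64 percentage points in place of 4.57. That of MAP1LC3B was -17.2 points in place of -12.9. Leaving out 1 library gave 4.23 to 5.03 points for GABARAPL1. Low counts limit what can be read for ULK2, MAP1LC3A and RETREG1.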
